A study of Arabidopsis thaliana with 15 samples.

Results

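Of 22746 Arabidopsis probe sets on the ATH1 array, 82 (0.361%) were called present on all 10 arrays of WOL-sorted root cells and absent on all 5 arrays of ATHB15-sorted root cells. These 82 probe sets are described here. They were chosen by those detection calls, so their higher signal in WOL cells is a description and was not tested. An absent call says that the signal was not told apart from that of the mismatch probes, and does not say that the transcript was missing. The annotation matched 43 of the 82 probe sets to 1 gene and 1 to several genes, and listed no gene for 38.

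The stele is the central cylinder of the root, made of xylem, phloem, the procambium between them and the surrounding pericycle. Xylem vessels carry water and build thick lignified walls, in which secreted peroxidases are known to couple lignin precursors, and phloem carries sugars. Brassinosteroids are plant steroid hormones, sensed by a leucine-rich repeat receptor kinase at the cell surface, which promote cell expansion and vascular differentiation.

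RNA came from protoplasts of primary roots of 6-day-old Arabidopsis thaliana seedlings. The cells were sorted by fluorescence, either from pWOL:GFP, labelled as stele, or from pAtHB15:YFP, labelled as provascular cells. WOL cells were untreated, or had 10 nM brassinolide (BL, the most active brassinosteroid) for 0.5, 1, 2 or 4 h, with 2 arrays a group, named A and B. ATHB15 cells were untreated (3 arrays) or had 10 nM BL for 2 h (2 arrays). All groups share the wall digestion that releases protoplasts, and the promoter that drives each reporter defines the cells collected. No mock treatment of matched length is named in the labels. Whether the arrays of a group came from separate cultures is not stated, and p-values then measure only the spread between these arrays, which may be technical.

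Between 49.5% and 59.6% of probe sets were present on an array. On the first principal component (49.7% of the variance) the ATHB15 arrays lay between 59.8 and 107.9 and the WOL arrays other than WOL control B between -98.4 and -16.2. WOL control B stood apart from the rest of its line at 21.4. Its GAPDH 3' to 5' ratio, a sign of RNA quality, was 4.66, where WOL control A had 2.71 and the BL-treated WOL arrays had 1.24 to 3.84. A second GAPDH pair gave 18.1 on WOL control B, 20.5 on WOL control A and 36.3 on WOL BL 4 h B. The actin ratio was 48.3, 28.4 and 48.9 on these arrays in that order, and the ubiquitin ratio 7.43, 5.07 and 5.08. Beside comparisons with the WOL control, values without WOL control B are given where it moves them most.

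The cell labels could be checked with few markers, because only 21 of 264 genes in 13 lists of markers and pathways had a probe set that the annotation names. None of the 21 was among the 82 probe sets. Of 16 stele and procambium markers only LHW, a transcription factor of vascular initials, was measured, and it was present on all 15 arrays. Of 26 xylem markers, IRX10, which builds xylan of secondary walls, was present on all WOL and 4 of 5 ATHB15 arrays, and IRX15, of the same process, on 4 of 10 WOL arrays and no ATHB15 array. The phloem list (3 of 26 measured) had no gene present on all arrays of either line, and of the pericycle list (3 of 16 measured) LBD16 and BGLU42 were present on all WOL arrays. Other cell types also gave signal. The endodermis marker GSO1 (1 of 14 measured) was present on all WOL and 2 ATHB15 arrays, and the root hair expansins EXPA7 and EXPA18 (2 of 15 epidermis markers measured) on 9 and 8 WOL arrays and on 2 and 1 ATHB15 arrays. JKD, the only cortex marker measured of 4, was absent on all 15 arrays. No root cap marker of 8 was measured. Summed over the epidermis list, signal was 166 to 599 in the WOL control, 1206 to 1245 at 0.5 h, 429 to 1099 at 1 h, 511 to 994 at 2 h and 265 to 648 at 4 h, against 10.2 to 110.5 in the ATHB15 control and 13.7 to 150.6 in ATHB15 cells after BL. The part of other cell types in the signals of the 82 probe sets was not tested. In sorted pools, fewer cells of a type and less RNA per cell cannot be told apart.

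Most transcripts detected throughout WOL cells were detected in ATHB15 cells too. Of 9187 probe sets present on all WOL arrays, 8133 were also present on all ATHB15 arrays, and 14 probe sets had the reverse pattern of the 82. Among probe sets absent on all ATHB15 arrays, 126 were present on 9 of 10 WOL arrays, just outside the rule. Nearest inside it were AT2G14900 and the unnamed 262454_at, with a detection p of 0.0461 on WOL BL 4 h B, and AT1G08340 and 251069_at, with a detection p of 0.0676 on ATHB15 control 1. Nearest outside were 267246_at and WRKY6, with 0.0562 on 1 WOL array, and 266356_at and AT2G01540, with 0.0562 on 1 ATHB15 array. A call of present reached up to a detection p of 0.0474 and a call of absent began at 0.0652. A pair of arrays held back many probe sets: without WOL control B the rule found 183, and without ATHB15 control 1 it found 175.

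**Figure D1:**
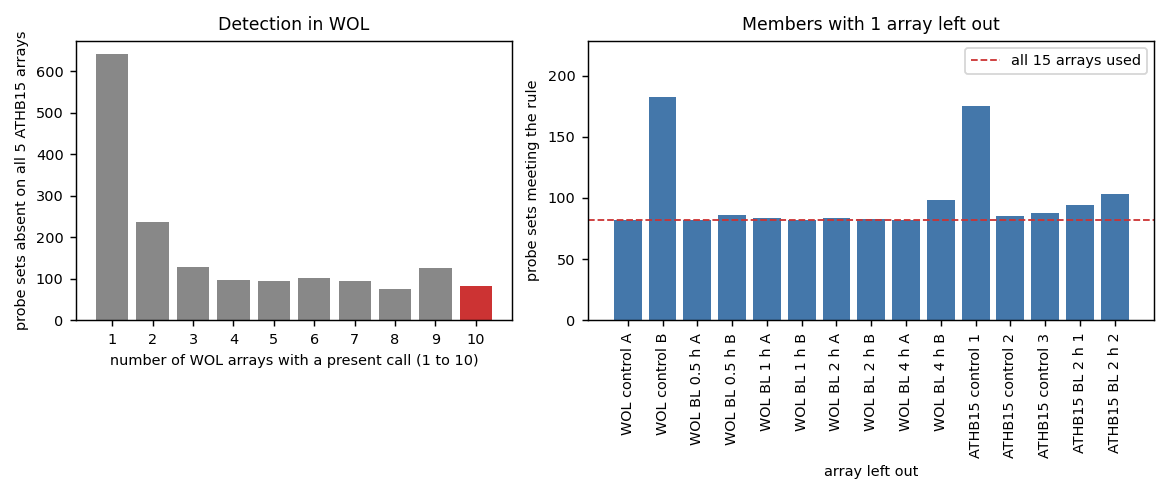
Left, the number of probe sets absent on all 5 ATHB15 arrays by the number of WOL arrays on which they were present (1 to 10, the 82 in red). Right, the number meeting the rule when 1 array is left out: 183 without WOL control B, 175 without ATHB15 control 1, and 82 to 103 without any other array.

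Signals of the 82 probe sets ran from 27.7 to 5954 in WOL cells and from 0.3 to 80.7 in ATHB15 cells. For 81 of 82 the lowest WOL array lay above the highest ATHB15 array. AT5G39580, a class III peroxidase, was the exception, at 27.7 on WOL control B against 38.3 on an ATHB15 array. Since every ATHB15 call was absent, folds are given as lower bounds on the measured signals. An ATHB15 signal below the dimmest present signal of its own array (8.8 to 23.4) was set to that value, and log2 signals were then averaged. Absent signals reached 80.7, so the dimmest present signal is not a detection limit for every probe set. Between the untreated controls this bound was 2.55-fold to 105-fold with a median of 7.81-fold, and it passed 10-fold for 27 probe sets. With WOL control B left out it was 3.16-fold to 193-fold (median 9.59-fold, 38 past 10-fold), and with WOL control A left out 1.28-fold to 57.3-fold (median 6.93-fold, 21 past 10-fold). With ATHB15 control 1 left out it was 2.07-fold to 68.9-fold (median 6.48-fold, 21 past 10-fold). At 2 h of BL in both lines the median bound was 9.91-fold. The dimmest present signal was lower on both ATHB15 BL arrays than on ATHB15 control 2 and ATHB15 control 3, and higher than on ATHB15 control 1. Bounds at 2 h and in the control therefore rest on different lowest values and cannot be compared directly. Whether BL changed the difference between the lines was not tested.

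**Figure D2:**
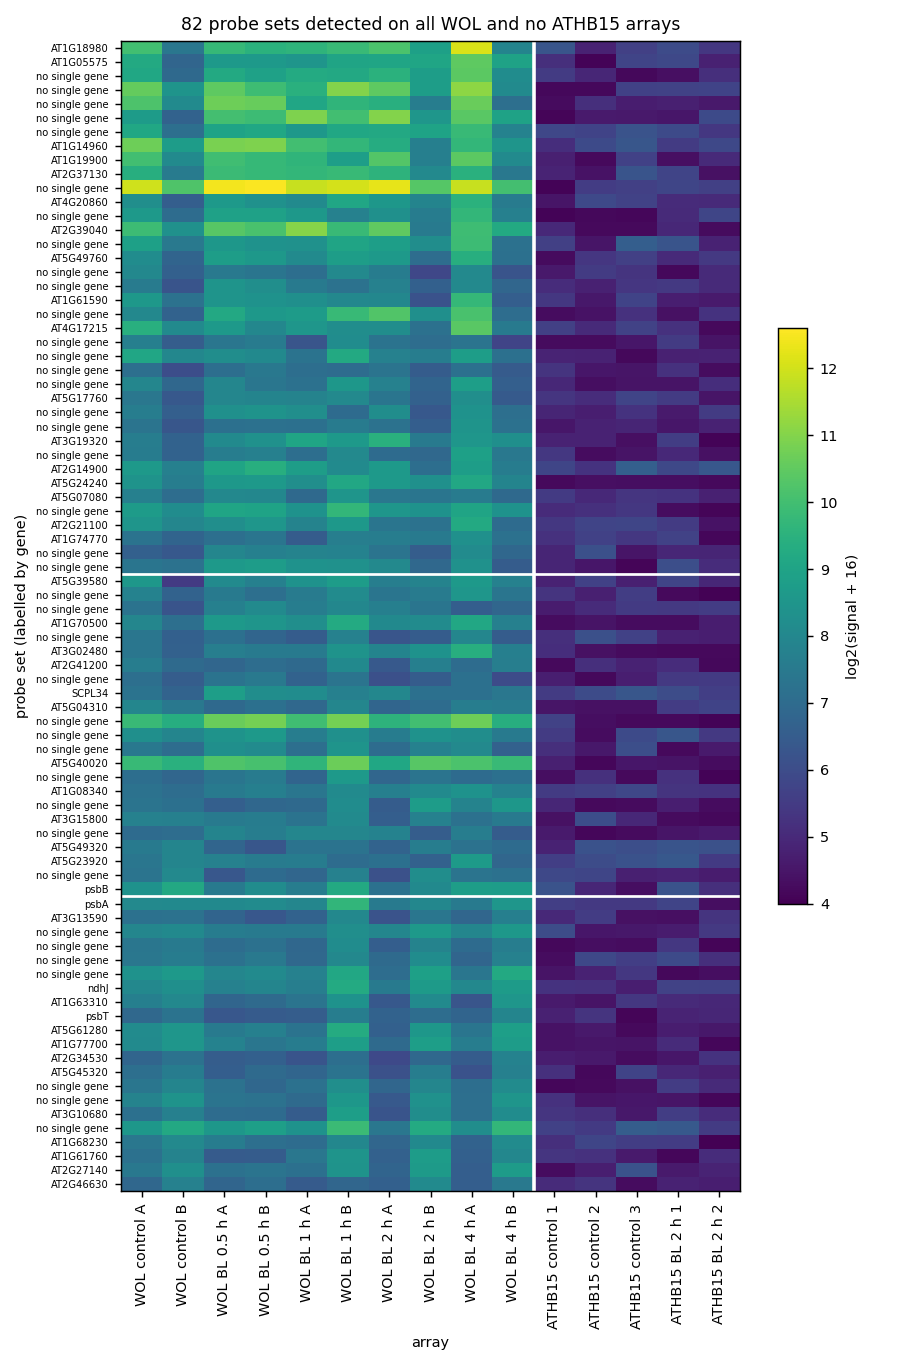
Log2(signal + 16) of the 82 probe sets (rows) on the 15 arrays (columns, WOL left of the vertical line). Horizontal lines divide the 38 probe sets higher on array A than B in the control, 2 h and 4 h groups (top), the 23 with neither order (middle) and the 21 higher on array B (bottom). All ATHB15 columns are dark, and WOL control B is dim for the top set.

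A function could be given to 33 of the 43 named genes, from general knowledge of Arabidopsis gene families, since the annotation gives 38 of the 43 only as a locus. Cell wall and secreted proteins were the most frequent, with 12 genes. Classes were made after the names were seen: beside the wall genes, 6 signalling genes, 4 enzymes, 4 membrane and chaperone genes, 4 genes of the plastid genome and 3 stress genes. Their counts were not tested.

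AT5G40020 and AT1G77700 encode thaumatin-family proteins, small secreted proteins named after a sweet-tasting protein. AT5G40020 had WOL signals, array A then array B, of 881 and 686 in the control, 1192 and 1092 at 0.5 h, 768 and 1603 at 1 h, 546 and 1298 at 2 h and 1123 and 896 at 4 h. Its ATHB15 signals were 11.2, 1.9 and 6.9 in the ATHB15 control and 5.8 and 3.5 after BL. At 0.5 and 4 h both arrays lay above both controls, and at 1 and 2 h the groups overlapped. In the control the bound for AT5G40020 was 43.4-fold, and 34.3-fold to 49.6-fold with 1 control array left out. Signals of AT1G77700 over the 10 WOL arrays were 109 to 435 with a median of 234, the form in which other ranges are given here, with a bound of 18.3-fold.

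The set holds 3 class III peroxidases, secreted enzymes that use hydrogen peroxide to oxidise phenolics such as lignin precursors. AT2G39040 had signals of 942 and 309.5 in the control, 1315 and 1118 at 0.5 h, 2097 and 899 at 1 h, 1433 and 169.9 at 2 h and 958 and 586 at 4 h, and of 15.6, 2.4 and 2.8 in the ATHB15 control and 15 and 3 after BL. Every WOL array was above every ATHB15 array, and array B lay far below array A in the control and at 2 h. The bound for AT2G39040 was 27-fold, 47.1-fold if WOL control B is left out and 15.5-fold if WOL control A is. AT2G37130 had signals of 658 and 175 in the control, 923 and 846 at 0.5 h, 815 and 867 at 1 h, 732 and 249 at 2 h and 692 and 159 at 4 h, with the same low B arrays in the control, 2 h and 4 h groups. Its bound was 13.3-fold, 25.8-fold if WOL control B is left out and 6.85-fold if WOL control A is. AT5G39580 stood at 363 on WOL control A and 27.7 on WOL control B, and at 190.2 to 416 on the BL arrays.

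AT1G19900, of the glyoxal oxidase family of secreted copper enzymes, had signals of 1014 and 262 in the control, 976 and 848 at 0.5 h, 782 and 432 at 1 h, 1230.3 and 193 at 2 h and 1355 and 261 at 4 h. Array A was again above array B in every group. The bound for AT1G19900 was 25.6-fold, 50.4-fold if WOL control B is left out and 13-fold if WOL control A is. AT1G18980, a germin-like protein of the extracellular cupin family, had 1008 and 155 in the control, 849 and 698 at 0.5 h, 748 and 886 at 1 h, 1144 and 459 at 2 h and 4464 and 221 at 4 h. Its 4 h arrays were the highest and the second lowest of the 10. Pectin-degrading families were represented by AT1G70500 (polygalacturonase family, 126 to 599 with a median of 279) and AT5G04310 (pectate lyase family, 95.7 to 230.4 with a median of 144). The dirigent gene AT2G21100, of a family that guides the coupling of lignan precursors, ranged from 112 to 579.9 with a median of 259. A glycosyl hydrolase gene, AT3G15800, ranged from 78.5 to 263 with a median of 176. AT3G19320, of the leucine-rich repeat family and counted with the wall and secreted genes, ranged from 88.9 to 691 with a median of 303.

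Among the signalling genes, AT5G24240 of the phosphatidylinositol 4-kinase gamma family had signals of 322 and 183 in the control, 370.5 and 377 at 0.5 h, 288 and 554 at 1 h, 375 and 302 at 2 h and 561 and 217 at 4 h, and of 2.4, 4.4 and 4.1 in the ATHB15 control and 3.8 and 2.5 after BL. All its ATHB15 signals lay below 5, so its bound of 14.7-fold (19.5-fold if WOL control B is left out and 11.1-fold if WOL control A is) rests on the lowest present signals. The leucine-rich repeat receptor kinase AT5G49760 ranged from 94.1 to 651 with a median of 321 and the protein kinase AT1G61590 from 55.9 to 831 with a median of 269. AT2G14900, of the gibberellin-regulated GASA family of small secreted peptides, had the highest ATHB15 signal of the 82, 80.7, below its lowest WOL signal of 121. AT1G74770, a BRUTUS-like E3 ubiquitin ligase of the iron deficiency response, ranged from 74.9 to 302 with a median of 143, and AT1G08340, also placed in this class, from 119.6 to 318 with a median of 193.

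Of the enzyme class, SCPL34, a serine carboxypeptidase-like protein, had the smallest value of the 82, 2.55-fold. All its ATHB15 control signals (29.1, 46.6 and 62.3) were above the lowest present signals, so this is the fold between the means of log2 signal as measured. AT4G20860, a berberine bridge enzyme-like oxidase, ranged from 78.4 to 702 with a median of 299.5, AT5G07080, an HXXXD acyltransferase, from 106 to 338 with a median of 165, and AT5G17760, an AAA ATPase, from 65.7 to 287 with a median of 185. AT1G14960 of the major latex protein family, placed with the stress genes, had signals of 1635 and 418 in the control, 1839 and 1964 at 0.5 h, 1014 and 822 at 1 h, 620.2 and 194 at 2 h and 812 and 339 at 4 h. Its bound was 22.1-fold, 43.7-fold if WOL control B is left out and 11.2-fold if WOL control A is. The other stress genes were the late embryogenesis abundant genes AT3G02480 (85.3 to 651 with a median of 192) and AT1G61760 (72.8 to 419.7 with a median of 142).

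The membrane and chaperone genes were AT3G10680 and AT2G27140, which carry the small heat shock protein (HSP20-like) domain, AT5G61280, of the plasma membrane remorins, and AT1G68230, of the reticulons that shape the endoplasmic reticulum. AT2G27140 had signals of 157 and 298 in the control, 131 and 141 at 0.5 h, 129 and 326 at 1 h, 94.3 and 397 at 2 h and 78.7 and 409.5 at 4 h, and of 3.4, 10.4 and 55.3 in the ATHB15 control and 8.7 and 12.8 after BL. AT3G10680 had 129.9 and 199 in the control, 115 and 113 at 0.5 h, 75.7 and 440 at 1 h, 58.8 and 280.3 at 2 h and 126 and 276 at 4 h. In both, array B was the higher one in the control, 1 h, 2 h and 4 h groups, the opposite order to AT2G39040. AT5G61280 showed the same order, with 268 and 353 in the control, 173 and 196 at 0.5 h, 139 and 617 at 1 h, 82.9 and 362 at 2 h and 147 and 446 at 4 h and a bound of 18.6-fold, the fifth highest among the named genes.

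The plastid genome contributed psbA, psbB and psbT, which encode subunits of photosystem II, and ndhJ, which encodes a subunit of the chloroplast NADH dehydrogenase-like complex. These are 9.30% of the 43 named genes, against 0.511% of all 13513 probe sets matched to 1 gene and 1.28% of those present on all WOL arrays. psbB had signals of 320.2 and 573 in the control, 168 and 275 at 0.5 h, 184 and 582 at 1 h, 133 and 255 at 2 h and 428 and 419.7 at 4 h, and of 57, 14.2 and 4.1 in the ATHB15 control and 58 and 19.9 after BL. ndhJ ranged from 166 to 596 with a median of 240.3 in WOL cells, with 10.2 to 36.1 in ATHB15 cells. Of 69 plastid probe sets, 62 were present on all WOL and 38 on all ATHB15 arrays, so most plastid transcripts were detected in ATHB15 cells too.

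Among the 10 named genes with no role given here, AT4G17215 had a bound of 14.1-fold (22.3-fold if WOL control B is left out and 8.85-fold if WOL control A is) and AT1G63310 one of 12.8-fold. The 39 probe sets without a single gene had WOL signals of 38.9 to 5954 and bounds of 2.91-fold to 105-fold. A pair of them is given here after their values were seen. 254828_at, which holds the highest signal of the set, had signals of 3976 and 1179 in the control, 5542 and 5954 at 0.5 h, 3733 and 4166 at 1 h, 4944 and 1279 at 2 h and 3773 and 1025 at 4 h, and of 0.8, 29.9 and 33 in the ATHB15 control and 40 and 33.1 after BL. 264348_at had 401 and 89.1 in the control, 1025 and 932 at 0.5 h, 1957 and 1007 at 1 h, 2018 and 350.1 at 2 h and 1320 and 483 at 4 h, and its control arrays were the lowest and the third lowest of the 10.

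The arrays of a group differed in an ordered way. In each of the control, 2 h and 4 h groups, array A was above array B for 38 of the 82 probe sets (46.3%), against 15.2% of all probe sets and 18.1% of those present on all WOL arrays. Array B was above array A in all those groups for 21 (25.6%), against 23.5% and 29.6%. These sets were formed after the values were seen and got no test. Of the 12 wall and secreted genes 6 were A-high and 1 was B-high, of the 6 signalling genes 5 were A-high, and of the 4 enzymes 3. All 4 membrane and chaperone genes and 3 of the 4 plastid genes were B-high. Median log2 signal of the A-high set was 8.53 on array A and 7.05 on array B of the control, 8.63 and 8.55 at 0.5 h, 8.36 and 8.70 at 1 h, 8.53 and 7.54 at 2 h and 9.30 and 7.32 at 4 h. The B-high set stood at 7.43 and 8.03, 7.21 and 7.22, 7.18 and 8.38, 6.71 and 8.18, and 7.02 and 8.19 in the same order.

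Of the 21 measured list genes, 4 were A-high by the same definition (EXPA7, EXPA18, GSO1 and CLE26, the last present on no WOL array), 4 were B-high (LHW, BGLU42, BBM and SPT) and 13 had neither order, among them IRX10, LBD16 and SWEET11. EXPA7 had 295 and 88.5 in the control, 525 and 587 at 0.5 h, 597 and 142 at 1 h, 492 and 229 at 2 h and 264 and 127 at 4 h, and EXPA18 had 304 and 77.8 in the control, 681 and 658 at 0.5 h, 502 and 287 at 1 h, 502 and 282 at 2 h and 383 and 138 at 4 h. Both expansins were higher on array A in the control, 1 h, 2 h and 4 h groups, whereas the A-high set had its higher median on array B at 1 h. GSO1 had 498 and 173 in the control, 265 and 382 at 0.5 h, 280.4 and 223 at 1 h, 286 and 139 at 2 h and 1096 and 184 at 4 h, also with array A above array B in the control, 2 h and 4 h groups. LHW had 809 and 1737 in the control, 834 and 799 at 0.5 h, 954 and 926 at 1 h, 669 and 894 at 2 h and 461 and 914 at 4 h, and was higher on array B in those groups. The part of cell composition in this split was not tested, and the markers number 1 or 2 a list.

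**Figure D3:**
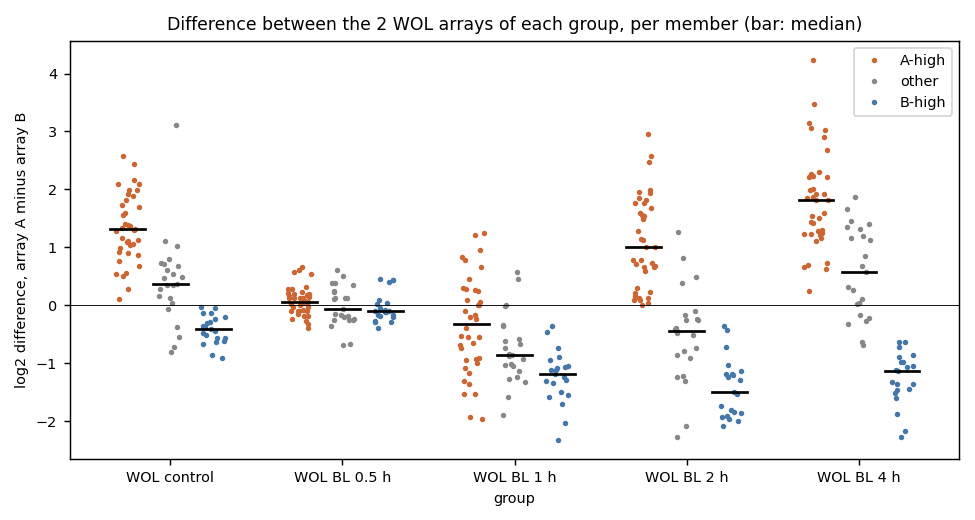
Log2 difference between array A and array B of each WOL group, for the 38 A-high, 23 other and 21 B-high probe sets (points) with the median of each set (bar). The control, 2 h and 4 h groups define the sets; the 0.5 h arrays lie near 0, and at 1 h all medians are below 0.

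The BL time course asks whether these transcripts of WOL-sorted cells respond to the hormone and when. The rule used no difference between WOL groups, so these comparisons were tested, in limma over all 22746 probe sets with Benjamini-Hochberg adjustment. The rule does keep out transcripts that BL brought down to absent, and equally those absent in the untreated cells and detected only after BL. WOL control B alone kept out 101 probe sets, which were present on WOL control A and on every BL-treated WOL array. No member passed an adjusted p of 0.05 at 0.5, 1, 2 or 4 h, for the mean of the 4 times, for the late against the early times or in the F test, and the share called of all probe sets was 0% in each. The lowest adjusted p of a member was 0.516, 0.647, 0.697 and 0.521 at the 4 times, 0.411 for the mean, 0.780 for late against early and 0.847 in the F test. At an unadjusted p under 0.05 there were 7 members higher and 1 lower at 0.5 h, against 3.68% and 5.37% of all probe sets. At 1 h there were 8 and 0 (2.56% and 4.08% of all), at 2 h 5 and 1 (1.89% and 4.72%) and at 4 h 5 and 0 (3.37% and 4.99%). For the mean of the 4 times there were 9 and 0 (3.49% and 6.49%), for late against early times 0 and 6 (2.24% and 2.91%), and the F test had 4 (5.72%). The 4 were SCPL34, AT1G14960 and the unnamed 264348_at and 262260_at, and the 5 higher at 2 h were AT3G19320, AT3G02480, AT1G08340, 264348_at and 247333_at. At 4 h the 5 were AT1G05575, AT3G02480, AT1G08340, 264348_at and 256522_at, and those outside the rule for named genes were singled out after their values were seen.

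The median member lay above the control at 0.5 h by 0.44 on the log2(signal + 16) scale, with 52 of 82 higher, against -0.08 for all probe sets. At 1 h the median was 0.32 (59 higher, all -0.09), at 2 h 0.02 (42 higher, all -0.11) and at 4 h 0.13 (51 higher, all -0.05). These medians rest on WOL control B. With that array left out they were -0.06, 0.05, -0.31 and -0.01, with 38, 44, 23 and 40 higher, and without WOL control A they were 0.79, 0.71, 0.24 and 0.47. Leaving out WOL control A put 54, 60, 49 and 57 members higher. The medians of all probe sets were -0.03, -0.05, -0.06 and -0.02 without WOL control B. They were -0.12, -0.13, -0.15 and -0.09 without WOL control A. The GAPDH ratio moved alongside, at 1.24 to 1.47 at 0.5 h and 2.04 to 2.23 at 1 h against 2.71 to 4.66 in the control. With that ratio as a covariate the median of the members at 0.5 h was 0.16, and the median of all probe sets moved up by 0.10. In that fit 1 member had an unadjusted p under 0.05, and the share of all probe sets is not given here. The arrays did not overlap between 0.5 h and the control for 34 higher and 22 lower members, against 18.3% and 26.9% of all probe sets, and at 1 h for 15 and 2, against 13.9% and 24.6%. At 2 h this held for 6 and 8 (12.1% and 24.7%), and at 4 h for 7 and 2 (13.1% and 17.2%).

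**Figure D4:**
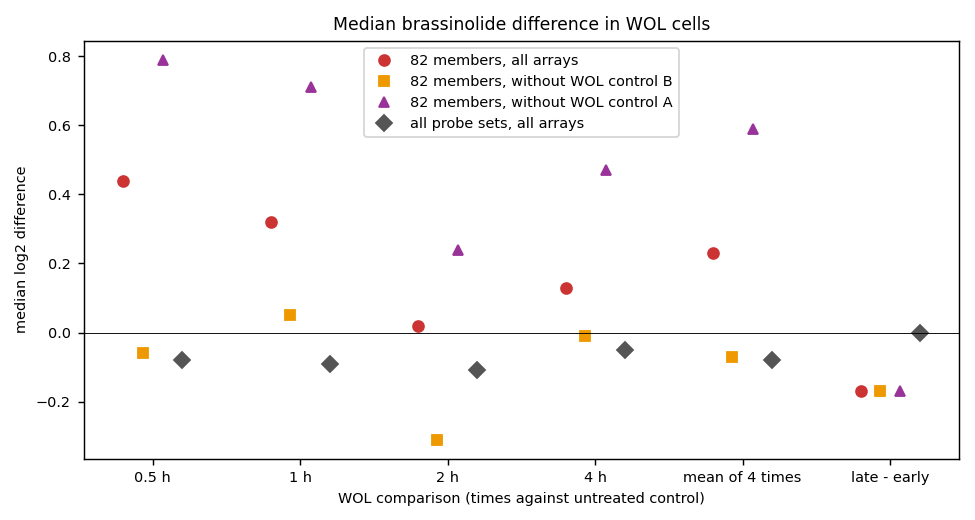
Median log2 difference of the 82 probe sets in each WOL comparison, with all arrays and with either WOL control left out, beside the median of all probe sets. At 0.5 h the median is 0.44 with all arrays, -0.06 with WOL control B left out and 0.79 with WOL control A left out.

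By class, values against the control moved with WOL control B. Signalling genes had 6, 6, 4 and 6 of 6 above the control at 0.5, 1, 2 and 4 h, with medians of 0.55, 0.42, 0.41 and 0.61. With WOL control B left out this was 4, 3, 3 and 4, with medians of 0.30, 0.05, -0.13 and 0.11, reversed at 2 h. Wall and secreted genes had 9, 8, 6 and 7 of 12 above it, with medians of 0.85, 0.75, 0.02 and 0.28, which became 5, 7, 2 and 5 of 12 and medians of -0.14, 0.06, -0.61 and -0.33, reversed in sign at 0.5, 2 and 4 h. Membrane and chaperone genes had 0, 1, 0 and 1 of 4 above it, with medians of -0.53, -0.06, -0.26 and -0.23, and 0, 4, 3 and 3 with medians of -0.18, 0.25, 0.04 and 0.12 with that array left out, reversed at 1, 2 and 4 h. No member of any class passed the threshold, and the difference between classes was not tested. For the A-high set the median at 0.5 h was 0.91 with all arrays and 0.21 with WOL control B left out. By the definition of that set WOL control A lies above WOL control B, so leaving out WOL control B could only lower it.

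SCPL34 had the smallest p of the named members at 0.5 h. Its signals were 139 and 90.1 in the control, 435 and 281 at 0.5 h, 275 and 197 at 1 h, 235 and 127 at 2 h and 129.6 and 154 at 4 h, so that both 0.5 h arrays lay above all other WOL arrays. At 0.5 h it was above the control by a log2 difference of 1.51 ± 0.40 (SE, n = 2 and 2; 1.24 without WOL control B), with an adjusted p of 0.516 in limma, and 0.96 at 1 h, and it did not pass the threshold. Its F test also had the smallest p of the named members, 0.0154 before adjustment. AT1G70500 and AT5G17760 differed by 0.99 and 1.02 at 0.5 h (0.59 and 0.49 without WOL control B). Below the control at 0.5 h with no overlap were AT5G49320 at -1.17, AT5G04310 at -0.64 and AT1G61760 at -1.03 (-0.98, -0.88 and -0.70 without WOL control B), with adjusted p of 0.526, 0.589 and 0.614 in limma.

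At 1 h AT3G19320 differed by 1.67 ± 0.58 (SE, n = 2 and 2; adjusted p = 0.705 in limma, 1.21 without WOL control B). Its signals were 183 and 88.9 in the control, 261 and 309.7 at 0.5 h, 522 and 378 at 1 h, 691 and 166 at 2 h and 354 and 297 at 4 h. All 1 h arrays were above both controls, and at 2 h array B was back between them. AT2G46630 and AT5G49320 lay lower at 1 h, with log2 differences of -0.66 and -0.45 (-0.21 and -0.26 without WOL control B). At 2 h AT5G04310, psbB and AT2G21100 lay lower without overlap, with -0.77, -1.15 and -0.93 (-1.01, -0.74 and -1.21 without WOL control B), and at 4 h AT5G49320 and AT3G15800, with -0.60 and -0.38 (-0.41 and -0.40 without it). None of these passed the threshold.

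AT3G02480 and AT1G08340 were the only members with all 8 BL arrays above both controls, 2 of 82 against 1.9% of all probe sets, with 0 below both controls throughout against 4.89% of all. AT3G02480 had signals of 151 and 85.3 in the control, 188 and 172 at 0.5 h, 171 and 328 at 1 h, 217 and 315 at 2 h and 651 and 196 at 4 h, and AT1G08340 had 135 and 119.6 in the control, 173 and 194 at 0.5 h, 151 and 263 at 1 h, 193 and 261 at 2 h and 318 and 209 at 4 h. In AT3G02480 the 4 h difference of 1.53 ± 0.51 (SE, n = 2 and 2; adjusted p = 0.521 in limma) rested on array A, at 651: it was 0.70 without that array and 2.36 without array B. AT1G08340 differed by 0.75 at 2 h and 0.94 at 4 h, and by 0.69 ± 0.27 (SE) over the 4 times, with an adjusted p of 0.446 in limma.

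Late times lay below early times for 54 of 82 members, with a median of -0.17 against 0.00 for all probe sets, a comparison that uses neither control array. The GAPDH ratio was 1.24 to 2.23 on the early and 1.91 to 3.84 on the late arrays. With it as a covariate the median was -0.16 with 49 members lower. Members at an unadjusted p under 0.05 then numbered 1 in place of 6. The second GAPDH pair, chosen after seeing the data, gave a median of -0.22 with 56 lower, and 3 such members. For the counts of both covariate fits the share of all probe sets is not given here. Both epidermis markers measured were also lower late, with a median of -0.70. So were the medians of the stele (-0.30), xylem (-0.42), phloem (-0.23) and pericycle (-0.13) lists. The endodermis marker GSO1 was higher late by 0.10, as was the median of the nutrient and ion transport list, by 0.19. Lower late were 33 of the 38 A-high members (median -0.45) and 15 of the 23 with neither order (-0.26). Of the 21 B-high members 6 were lower late, with a median of 0.07. The 2 h and 4 h arrays helped define these sets. The part of RNA quality, cell composition or the order of arrays A and B in this difference was not tested beyond the GAPDH covariates. In AT1G14960 every 2 h and 4 h array was below every 0.5 h and 1 h array, and the late minus early difference was -1.58 ± 0.45 (SE, n = 4 and 4; adjusted p = 0.780 in limma). AT2G37130 differed by -1.15, also without overlap (-1.65 to -0.64 with 1 array left out). In all, 0 members were higher and 3 lower without overlap, against 1.37% and 1.67% of all probe sets, the third being the unnamed 266992_at. Neither gene passed the threshold.

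**Figure D5:**
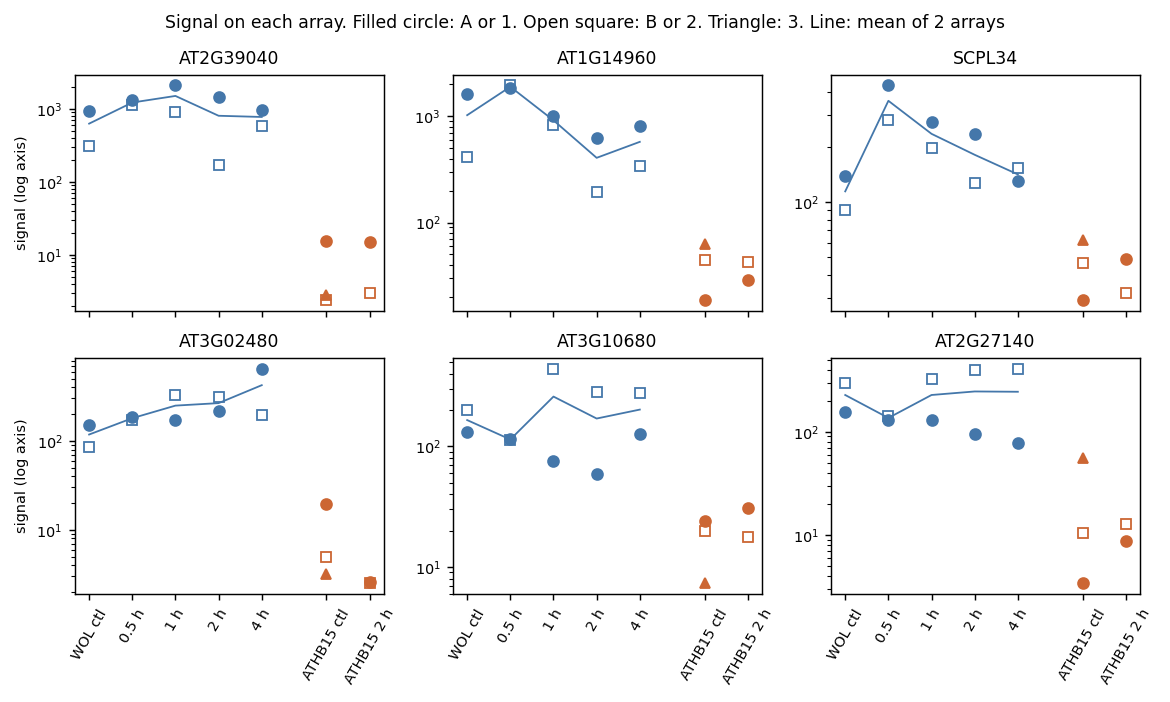
Signal (log axis, a scale of its own in each panel) of 6 genes on every array: WOL control and BL times in blue with a line through the group means, ATHB15 control and BL 2 h in orange. SCPL34 is highest at 0.5 h, AT3G02480 has all BL arrays above both controls, and in AT3G10680 and AT2G27140 array B is above array A at 1, 2 and 4 h.

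Pathway genes outside the 82 were few. Of 31 brassinosteroid genes only BRL1, a receptor of the hormone, and EXO, a growth gene known to respond to it, were measured. EXO had 268 and 225 in the control, 384 and 415 at 0.5 h, 567 and 291 at 1 h, 569 and 400.4 at 2 h and 317 and 543 at 4 h, all 8 BL arrays above the control at log2 differences of 0.67, 0.69, 0.92 and 0.72. BRL1 differed by -0.93, -0.94, -1.53 and -0.73, at signals of 8.3 to 66.5. Of 37 cytokinin genes ARR15 and ARR16 were measured, and of 45 nutrient and ion transport genes SWEET2 and SWEET11, and no auxin transport gene of 19. Of the 7 quiescent centre and stem cell markers BBM, AGL42 and SPT were measured, with BBM at 172 and 320.4 in the control and 16.6 and 95.5 at 4 h. In none of these lists did a gene pass the threshold at any time.

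The 43 named members had a median annotated gene length of 1726 bases, against 2108 for all probe sets matched to 1 gene and 2410 for those present on all WOL arrays. Probe sets of the type that matches several transcripts were 3 of 82 (3.66%, against 4.11% of all). Of the 43 genes, 12, 8, 5, 2 and 12 lie on chromosomes 1 to 5 and 4 in the plastid genome.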

How the data were processed

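The files hold 15 ATH1 arrays in 7 groups of 2 or 3. Per the file headers, the deposited tables give for each probe set a signal, a detection call and a detection p-value, and the labels' protocols name the Affymetrix two-cycle amplification. The deposited signal intensity is linear, and each array's trimmed mean was 250.02 or 250.03, so the authors had scaled the arrays. Software and genome build are stated in neither headers nor labels (not given in the sources used here). Deposited detection calls (the other kind of column) chose the 82 members, and the deposited detection p-value served only to describe those near the limit and for a stricter rule.

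Signals were analysed as log2(signal + 16). Affymetrix control features (64) did not enter. limma 3.58.1 in R 4.3.3 fitted 7 group means over all 15 arrays (8 residual and 6.34 prior degrees of freedom), with two-sided tests, Benjamini-Hochberg adjustment over 22746 probe sets and a threshold of 0.05. It was run on simulated data with independent normal noise and changes at 2 h only. That run had no order between arrays A and B, so it does not cover the array differences described above. The number of arrays limits the precision.

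The members and lists were chosen with earlier results of these data known. The named genes are up to 3 members a direction and comparison with the smallest p and no overlap, those with the smallest F test p, the 12 with the highest bounds, those nearest the detection limits and up to 4 in each word class. The roles and their 6 classes were added later, and genes named for them lie outside that rule. The cortex marker PEP was left out, since its symbol matched another gene. Alternatives were other offsets, normalizations, filters, covariates and arrays.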

Additional observations from a re-analysis of the deposited data

How the results depend on the processing

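The number of members was 18 with a stricter detection p (under 0.01 in WOL, above 0.10 in ATHB15), 118 with marginal calls counted, and 82 to 183 with 1 array left out (183 without WOL control B, 175 without ATHB15 control 1). No member was called in any of 7 tests under any of 24 alternatives. The 26 named differences kept their direction in all 624 refits, and all stayed on the same side of the threshold. They were picked for arrays that do not overlap, so leaving out an array or changing the offset could not reverse them. For those refits the direction was fixed in advance. With the replicate block (letter or number within a line) 0 members were called. Members at an unadjusted p under 0.05 numbered 17, 12, 5 and 8 at 0.5, 1, 2 and 4 h. The main fit had 8, 8, 6 and 5, and the share of all probe sets in the block fit is not given here. A change in these counts is therefore not a result about the members. Deviations of same-lettered WOL arrays correlated between -0.19 and 0.42 over the pairs of groups, positive among control, 2 h and 4 h (0.14 to 0.42) and near 0 for those with 0.5 h, so the letters were not taken as a pairing. Median centring moved the median of all probe sets by 0.10 at 1 h and 0.17 at 2 h, and gave medians of 0.42 and 0.20 for the members, with 68 and 49 higher. A second GAPDH probe pair as the covariate, chosen after seeing the data, gave a median of 0.46 at 0.5 h where the first gave 0.16. The cause of these shifts was not tested.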
